A study of Rattus norvegicus with 12 samples.

Results

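The comparison described here sets the striatum of rats killed 24 h after their last methamphetamine (MA) session (MA24, 4 rats) against that of rats killed 12 h after it (MA12, 4 rats), over every gene with a mean count above 4 in these 8 libraries. By this rule 12652 of the 17337 gene symbols of the count table were kept, in 8 of the 12 libraries of the series. All rats were male Sprague–Dawley rats of wild-type genotype that had taken MA by lever press over 16 days. The other 4 libraries came from rats that the labels call non-addicted after the same 16 days, and their levels are set beside those of the called genes without a test. Each library was made from poly-A RNA of the whole striatum of 1 rat, so every value is an average over all cells of the tissue, and fewer cells of a type cannot be told apart from less RNA per cell. Rats that stopped taking the drug for different lengths of time may also have been killed at different times of day. The labels give no hour, and abstinence length and time of day cannot be told apart here.

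The striatum is the main input nucleus of the basal ganglia. Most of its neurons are GABAergic projection neurons that receive glutamate from cortex and thalamus and dopamine from the midbrain, and MA acts by releasing dopamine and other monoamines from their terminals. The projection neurons of the direct pathway carry D1 dopamine receptors, substance P and dynorphin, while those of the indirect pathway carry D2 receptors, an adenosine receptor and enkephalin. Their firing depends on potassium, sodium and calcium channels and on glutamate and GABA receptors, which is why these families are described one by one below.

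The 8 libraries held 17908962 to 23850284 counts on genes, with medians of 22130406 in MA12 and 20120086 in MA24, and a two-sided exact permutation test of the totals gave p = 0.8. The share of a library taken by its top 10 genes was 4.59% to 5.97% in MA12 (median 5.01%) and 5.82% to 6.26% in MA24 (median 5.99%), with an exact permutation p of 0.0571. No 2 libraries of a group agreed within counting error (chi-square divided by its degrees of freedom, 9.63 to 27.8 over the 12 pairs), and each was counted as 1 replicate. All 4 MA24 rats and 2 of the 4 MA12 rats (4N and 7N) have a number that ends in N, and what N stands for is not given in the sources used here. The first principal component of log2 CPM held 26.4% of the variance and placed all 4 MA12 rats on one side (-27.6 for rat 21, -24.4 for 31, -13.6 for 4N and -6.11 for 7N) and all 4 MA24 rats on the other (3.90 for 9N, 33.6 for 14N, 10.5 for 15N and 23.8 for 16N). The MA12 rats without N, 21 and 31, lay farthest out in their group, and 14N lay farthest out in MA24. The markers of the labelled tissue were strong in every library. *Ppp1r1b*, which codes for the dopamine-regulated phosphoprotein DARPP-32, ranged from 5897 CPM (counts per 1000000 library counts, TMM-scaled) in rat 21 to 9929 CPM in rat 16N, whereas *Slc17a7*, the vesicular glutamate transporter of cortical neurons, did not pass 9.56 CPM in any of the 8 libraries.

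With edgeR's quasi-likelihood test and Benjamini-Hochberg adjustment over the 12652 genes, 210 genes were higher in MA24 (1.66%) and 318 were lower (2.51%) at an adjusted p below 0.05. Of these, 58 rises (0.458%) and 137 falls (1.08%) also reached an FC of at least 1.5 and are called DEGs below. In 184 of the 195 DEGs, the values of the MA12 and MA24 rats did not overlap. Over all genes tested, the groups did not overlap in 865 genes that were higher (6.84%) and 957 that were lower (7.56%). The changes were small in size. The median log2 FC was 0.45 among the 210 rises and -0.53 among the 318 falls, against -0.0049 over all genes. When the genes were split by mean count into 5 equal parts, the part with the highest counts (median 3614) held 69 of the 210 rises and 59 of the 318 falls, and the part with the next to lowest counts (median 196) held 22 and 53.

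**Figure D1:**
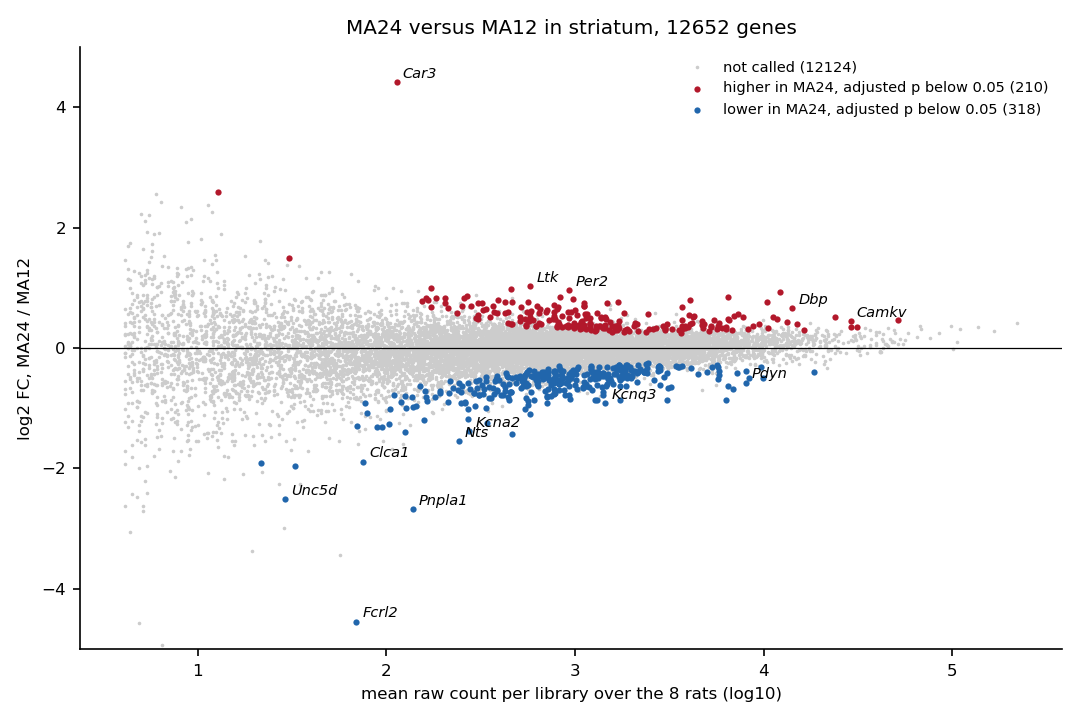
Each point is 1 of 12652 genes, with its mean raw count over the 8 libraries on the x axis (log10) and its log2 FC between MA24 and MA12 on the y axis. Coloured points had an adjusted p below 0.05, 210 of them higher (red) and 318 lower (blue) in MA24, and most lie within 1 log2 unit of 0.

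The counts of calls depended on the rats, the tool and the genes tested. With the quasi-likelihood test on all 12652 genes and without MA12 rat 21, no gene passed the adjusted threshold in either direction, although 2214 genes had an unadjusted p below 0.05. Without MA24 rat 16N, 0 genes rose and 2 fell, with 2383 genes at an unadjusted p below 0.05. Among the 6 rats with N in their number, and likewise with the kind of number as a covariate, no gene passed, with 1733 and 1893 genes at an unadjusted p below 0.05. In the same 4 sets of samples, DESeq2 called 77 DEGs higher and 118 lower without rat 21, 64 and 208 without rat 16N, 74 and 39 among the rats with N, and 83 and 61 with the covariate. The quasi-likelihood test also made calls in these sets when the 15% of genes with the lowest variance were left out, with 37 DEGs higher and 66 lower without rat 21, 32 and 89 without rat 16N, 15 and 14 among the rats with N, and 25 and 22 with the covariate. The DESeq2 and variance-filter fits of these sets were added after the data were seen. The directions were shared more widely than the calls. All 210 rises and all 318 falls kept their sign among the 6 rats with N, with medians of 0.44 and -0.49. These 6 rats also took part in choosing the genes, so the shared sign is no independent support.

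**Figure D2:**
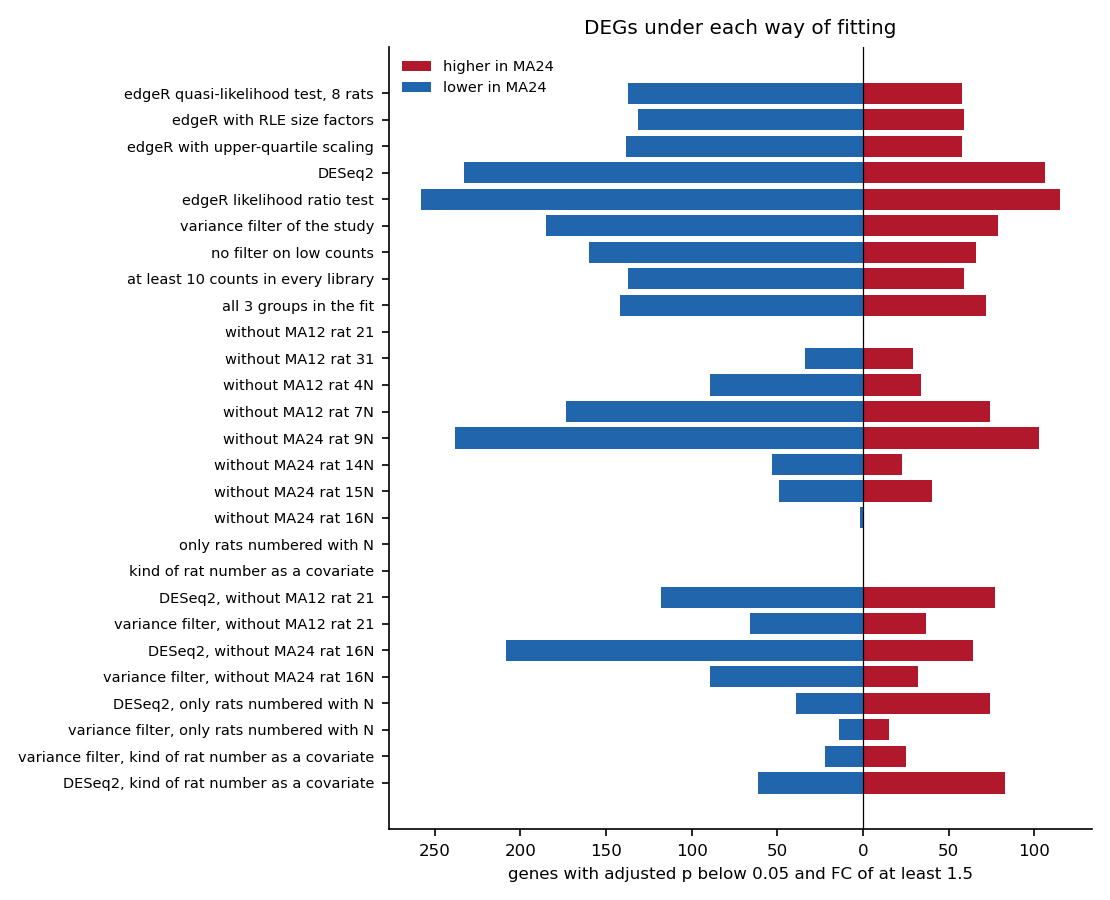
Bars show the number of DEGs (adjusted p below 0.05 and FC of at least 1.5) that were higher (red, to the right) or lower (blue, to the left) in MA24 under each way of fitting. Fits that kept all 8 rats and had no covariate gave 58 to 115 rises and 131 to 258 falls, while edgeR's quasi-likelihood fits of the 12652 genes without rat 21, with only the N rats or with the covariate gave none.

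The promoters of 4 genes are shown because their genes were among the clearest changes at each end of the comparison and because they carry short motifs that are known from textbook regulation of these genes' families. The sequences are RefSeq's (GRCr8), 250 bases before to 50 after the start of transcription, read 5′ to 3′ in the direction of the gene. Capitals mark matches to the motif named. The *Nts* promoter (chr7:39460839-39461138 on the minus strand) held 1 AP-1 motif (TGANTCA, any base at N), which begins 212 bases before the start site and which 7.33% of the 33469 promoters of this length in the table also held. The *Ciart* promoter (chr2:186112197-186112496 on the minus strand) held 3 E-boxes (CACGTG, found in 6.42% of promoters), beginning 93, 35 and 21 bases before the start. The *Per2* promoter (chr9:99496944-99497243 on the minus strand) held 1 D-box (TTANGTAA, 2.24%), 192 bases before it. The promoter of *Arntl*, which RefSeq lists as *Bmal1* (chr1:176766078-176766377 on the plus strand), held 1 ROR core motif (TAGGTCA, 2.63%), 16 bases before it. Both strands were searched, no matches overlapped, and a match is a description of letters, not of binding.
Nts: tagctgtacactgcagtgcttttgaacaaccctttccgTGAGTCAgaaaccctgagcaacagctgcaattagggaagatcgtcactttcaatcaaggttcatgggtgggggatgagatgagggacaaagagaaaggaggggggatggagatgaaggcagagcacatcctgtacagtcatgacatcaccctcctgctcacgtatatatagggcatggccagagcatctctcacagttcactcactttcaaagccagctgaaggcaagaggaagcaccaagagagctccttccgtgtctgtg
Ciart: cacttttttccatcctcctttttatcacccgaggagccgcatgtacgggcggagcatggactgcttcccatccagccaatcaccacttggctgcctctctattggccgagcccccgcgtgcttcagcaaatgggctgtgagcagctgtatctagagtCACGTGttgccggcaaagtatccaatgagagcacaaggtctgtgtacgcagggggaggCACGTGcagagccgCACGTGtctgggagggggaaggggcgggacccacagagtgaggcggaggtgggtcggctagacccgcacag
Per2: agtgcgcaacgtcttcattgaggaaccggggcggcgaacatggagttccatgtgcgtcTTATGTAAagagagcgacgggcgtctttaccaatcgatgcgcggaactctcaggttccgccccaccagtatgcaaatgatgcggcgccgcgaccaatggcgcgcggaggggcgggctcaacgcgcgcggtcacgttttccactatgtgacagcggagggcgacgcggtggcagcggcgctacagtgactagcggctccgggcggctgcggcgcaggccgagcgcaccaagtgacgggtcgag
Arntl: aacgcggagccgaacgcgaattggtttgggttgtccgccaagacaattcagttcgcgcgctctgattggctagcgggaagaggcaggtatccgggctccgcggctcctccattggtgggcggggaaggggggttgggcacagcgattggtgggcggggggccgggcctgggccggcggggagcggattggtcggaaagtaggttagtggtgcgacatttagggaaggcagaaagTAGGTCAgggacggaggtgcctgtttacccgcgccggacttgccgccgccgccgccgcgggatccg

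*Nts*, which codes for the peptide neurotensin, had the smallest p of all genes. Its level was 20.8, 19.3, 14.0 and 12.0 CPM in MA12 rats 21, 31, 4N and 7N and 5.63, 6.11, 5.09 and 5.91 CPM in MA24 rats 9N, 14N, 15N and 16N, and values are given in this order of rats from here on. The lowest MA12 rat lay above the highest MA24 rat, and the MA24 rats lay close together (log2 FC = -1.54 ± 0.18 (SE), adjusted p = 0.0118). Of the 29 neuropeptide genes tested, *Nts* and *Pdyn* fell (6.9% against 2.51% of all genes) and none rose. *Pdyn*, the precursor of dynorphin in direct-pathway neurons, measured 450.4, 393, 469 and 504 CPM in MA12 and 356, 304, 274 and 286 CPM in MA24 (log2 FC = -0.57 ± 0.10 (SE), adjusted p = 0.0179). The other direct-pathway markers did not pass the test. *Drd1* measured 459 ± 23.1 CPM in MA12 and 421 ± 30.9 CPM in MA24 (mean ± SD, n = 4; adjusted p = 0.333), and *Tac1*, the precursor of substance P, 473 ± 61.2 and 450.3 ± 32.9 CPM (adjusted p = 0.706). *Penk*, the enkephalin precursor of the indirect pathway, measured 2540.3 ± 220.3 and 2659.9 ± 108 CPM (adjusted p = 0.669). None of the 32 neuropeptide receptor genes passed the test by edgeR's quasi-likelihood test, with 1 higher and 4 lower at an unadjusted p below 0.05. Among all genes, 10.7% were higher and 12.2% lower at that threshold.

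Potassium channel genes were called in both directions, and calcium, sodium and HCN channel genes only downwards. Of 78 potassium channel genes tested, 7 fell (8.97% against 2.51% of all genes) and 4 rose (5.13% against 1.66%), with a median log2 FC of -0.17, and of 42 voltage-gated calcium, sodium and HCN channel genes, 7 fell (16.7%) and none rose, with a median of -0.18. *Kcns2*, a modifying subunit of voltage-gated potassium channels, measured 36.9, 35.0, 39.9 and 35.8 CPM in MA12 and 22.5, 11.6, 16.8 and 18.1 CPM in MA24 (log2 FC = -1.09 ± 0.15 (SE), adjusted p = 0.0179). *Kcnq3*, a subunit of the M-current channel that dampens repetitive firing, measured 93.9, 82.6, 95.8 and 80.6 and 60.1, 33.3, 43.3 and 49.8 CPM (log2 FC = -0.92 ± 0.14 (SE), adjusted p = 0.0179). For both genes every MA24 rat lay below every MA12 rat, and 14N was the lowest of all. *Kcna2*, which codes for a delayed rectifier of axons, measured 21.9, 19.8, 17.5 and 14.2 CPM in MA12 and 10.5, 2.61, 7.19 and 7.81 CPM in MA24 (log2 FC = -1.38 ± 0.29 (SE), adjusted p = 0.0271). *Kcnh5* fell by 1.96 on the log2 scale (adjusted p = 0.0273) at a level of 2.41 ± 0.437 CPM in MA12, and *Kcnf1* by 0.54 (adjusted p = 0.0210). *Kcnma1* also fell. The 4 rises were *Kcnk4*, a two-pore channel opened by stretch and heat, *Kcnip2*, which binds Kv4 channels and calcium, the sodium-activated channel *Kcnt1* and the Kv4 channel *Kcnd1*. *Kcnk4* measured 5.38, 8.02, 3.57 and 5.08 CPM in MA12 and 8.77, 11.5, 9.82 and 13.9 CPM in MA24 (log2 FC = 0.99 ± 0.23 (SE), adjusted p = 0.0368), and *Kcnt1* 153, 159, 157 and 200.2 and 223, 272, 208 and 253 CPM (log2 FC = 0.51 ± 0.10 (SE), adjusted p = 0.0245). *Kcnip2* rose by 0.83 ± 0.20 (log2, SE; adjusted p = 0.0366).

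The calcium channel falls were led by *Cacna2d1*, the auxiliary subunit that binds gabapentin, with 83.5, 73.8, 83.7 and 73.1 CPM in MA12 and 57.0, 30.0, 44.0 and 42.3 CPM in MA24 (log2 FC = -0.86 ± 0.15 (SE), adjusted p = 0.0179). *Cacnb4*, another auxiliary subunit, measured 76.0, 67.2, 64.1 and 66.6 and 51.5, 30.3, 47.1 and 45.9 CPM (log2 FC = -0.65 ± 0.13 (SE), adjusted p = 0.0246). In both genes the groups did not overlap, and rat 9N was the highest MA24 rat. *Scn2a*, a main sodium channel of neurons, changed less, by -0.32 ± 0.07 (log2, SE; adjusted p = 0.0348). *Scn3a*, *Cacna1e* and *Cacng2* fell as well. None of the 19 TRP channel genes passed the test, with 2 higher and 4 lower at an unadjusted p below 0.05, against 10.7% and 12.2% of all genes.

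A few glutamate receptor genes passed the test, in both directions. Of 18 ionotropic receptor genes, 4 fell (*Grin2a*, *Grin2b*, *Grik3* and *Grid1*), which makes 22.2% against 2.51% of all genes. In the same list 1 gene rose (*Grik5*), which makes 5.56% against 1.66%. *Grin2a* measured 26.4, 23.3, 24.0 and 15.3 CPM in MA12 and 10.3, 5.77, 9.76 and 11.7 CPM in MA24 (log2 FC = -1.25 ± 0.21 (SE), adjusted p = 0.0179), and *Grin2b* 26.1, 27.9, 25.3 and 18.5 and 13.0, 11.8, 15.7 and 16.3 CPM (log2 FC = -0.79 ± 0.15 (SE), adjusted p = 0.0210). Both are the NMDA receptor subunits that set its kinetics, and in both the groups did not overlap. The kainate receptor genes went in opposite directions. *Grik3* measured 36.1, 33.8, 39.9 and 25.3 CPM in MA12 and 22.1, 8.67, 16.1 and 20.1 CPM in MA24 (log2 FC = -1.01 ± 0.22 (SE), adjusted p = 0.0313), whereas *Grik5* measured 383, 446, 475 and 481 and 589.8, 643, 540.4 and 768 CPM (log2 FC = 0.51 ± 0.11 (SE), adjusted p = 0.0272). Of 7 metabotropic receptor genes, *Grm5*, which couples to Gq in projection neurons, and *Grm3*, which couples to Gi, fell (28.6% of the list). *Grm5* measured 172, 165, 157 and 145 and 127, 67.5, 110.0 and 112 CPM (log2 FC = -0.62 ± 0.15 (SE), adjusted p = 0.0374), and rat 14N lay well below the other MA24 rats. *Grm3* changed by -0.37 ± 0.09 (log2, SE; adjusted p = 0.0369).

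The GABA receptor list had one of the lowest medians of all lists. Of 15 GABA-A and GABA-B receptor genes, 3 fell (20% against 2.51% of all genes) and none rose. In 13 of the 15 the log2 FC was below 0, and the median was -0.36. *Gabra2* measured 102, 85.0, 77.3 and 69.3 CPM in MA12 and 57.9, 55.4, 57.8 and 43.6 CPM in MA24 (log2 FC = -0.63 ± 0.12 (SE), adjusted p = 0.0221). *Gabra4* measured 142, 108, 121 and 125 and 102, 86.1, 99.2 and 92.8 CPM (log2 FC = -0.38 ± 0.09 (SE), adjusted p = 0.0360). Both code for subunits of the chloride channel that GABA opens. In the MA12 rats without N, 21 and 31, the mean level of this list lay higher than in 4N and 7N, and the median log2 FC was -0.25 among the 6 rats with N. Of 36 serotonin, muscarinic, adrenergic, histamine and cannabinoid receptor genes, *Cnr1* and *Chrm3* fell (5.56%) and *Hrh3* rose (2.78% against 1.66% of all genes). *Cnr1*, the cannabinoid receptor of projection neuron terminals, measured 454, 356, 536 and 527 CPM in MA12 and 367, 349, 334 and 271 CPM in MA24 (log2 FC = -0.50 ± 0.13 (SE), adjusted p = 0.0419). Its groups overlapped, since rat 31 lay below rat 9N.

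**Figure D3:**
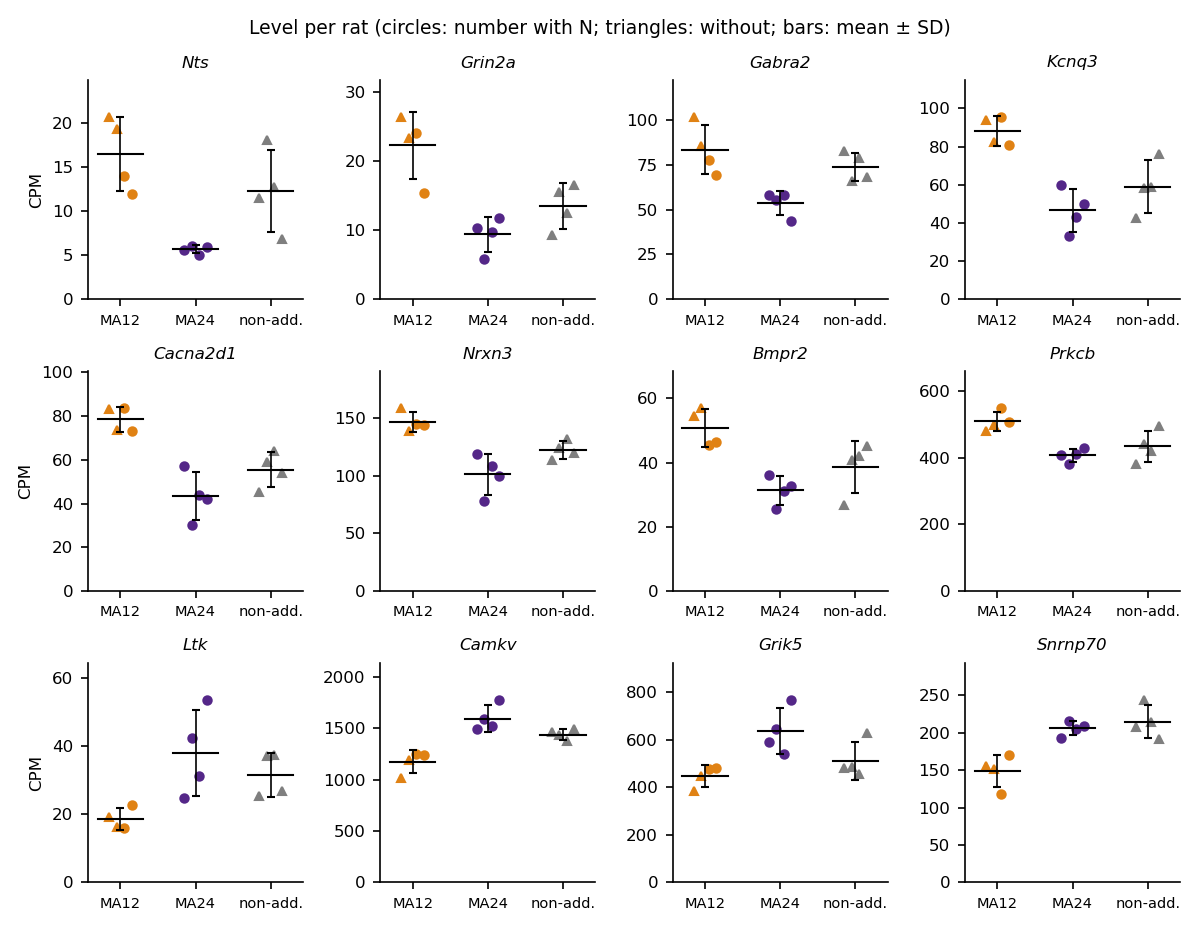
Points give the CPM of 12 genes in each rat (circles for rat numbers with N, triangles for those without), and lines and bars give the mean ± SD of 4 rats for MA12, MA24 and the non-addicted rats. Except for the panels of *Ltk*, *Camkv*, *Grik5* and *Snrnp70*, which were higher in MA24, every gene shown was lower in all 4 MA24 rats than in all 4 MA12 rats. A lack of overlap was a condition for the genes named as the largest changes.

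The calls among genes of the presynaptic terminal and of the synaptic contact were all falls, though most members did not pass the test. Of 63 genes of vesicle release, 7 fell (*Pclo*, *Stxbp5*, *Dnm3*, *Erc1*, *Sh3gl2*, *Syt6* and *Sv2b*), which makes 11.1% against 2.51% of all genes, 43 had a log2 FC below 0 and the median was -0.22. *Pclo*, a very large scaffold protein of the active zone, measured 101, 95.9, 91.9 and 87.1 CPM in MA12 and 81.5, 55.8, 66.9 and 64.7 CPM in MA24 (log2 FC = -0.48 ± 0.10 (SE), adjusted p = 0.0282). *Erc1*, another active zone protein, measured 20.4, 20.0, 17.0 and 16.0 and 12.6, 6.21, 12.2 and 11.6 CPM (log2 FC = -0.79 ± 0.19 (SE), adjusted p = 0.0395). Outside this list, *Stxbp5l*, a relative of the release inhibitor tomosyn, measured 27.7, 26.0, 26.6 and 24.7 and 17.0, 12.8, 16.0 and 14.2 CPM (log2 FC = -0.81 ± 0.11 (SE), adjusted p = 0.0179), and *Ppfia2*, a liprin that organizes the active zone, 45.0, 43.9, 41.6 and 37.8 and 27.9, 28.8, 29.4 and 27.4 CPM (log2 FC = -0.57 ± 0.08 (SE), adjusted p = 0.0179). The groups did not overlap in these genes. Both were among the 10 genes with the smallest p.

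Of 62 postsynaptic scaffold and synaptic adhesion genes, 6 fell (*Slitrk1*, *Nrxn3*, *Homer1*, *Slitrk2* and *Dlgap2* among them; 9.68% of the list), 53 had a log2 FC below 0 and the median was -0.22. *Nrxn3*, a presynaptic adhesion protein, measured 159, 139, 145 and 144 CPM in MA12 and 119, 77.9, 109 and 99.6 CPM in MA24 (log2 FC = -0.54 ± 0.11 (SE), adjusted p = 0.0246). *Slitrk1*, a transsynaptic partner of receptor phosphatases, measured 45.3, 43.6, 35.7 and 36.1 and 29.8, 28.8, 26.4 and 25.9 CPM (log2 FC = -0.54 ± 0.10 (SE), adjusted p = 0.0221). *Homer1*, which ties *Grm5* receptors to their scaffold and has a short form induced by activity, measured 158, 123, 155 and 156 and 109, 119, 113 and 113 CPM (log2 FC = -0.38 ± 0.09 (SE), adjusted p = 0.0329). Gene counts do not separate its forms. One adhesion gene outside the list rose. *Icam5*, a cell adhesion molecule of forebrain dendrites, measured 299.6, 306, 299 and 328 CPM in MA12 and 415, 424, 421 and 493 CPM in MA24 (log2 FC = 0.51 ± 0.08 (SE), adjusted p = 0.0179).

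The cadherin superfamily, which holds neurons of a kind together, had 7 falls (9.59% against 2.51% of all genes) and no rise among 73 genes. Of the 73 genes, 62 had a log2 FC below 0, and the median was -0.34. The falls were *Cdh6*, *Fat3*, *Cdh8*, *Pcdh19*, *Pcdhga7*, *Pcdh7* and *Cdh2*. *Cdh6* measured 39.7, 27.5, 32.5 and 31.6 CPM in MA12 and 23.9, 15.1, 15.7 and 19.2 CPM in MA24 (log2 FC = -0.83 ± 0.15 (SE), adjusted p = 0.0210), and *Fat3* 64.0, 59.7, 66.2 and 75.5 and 49.9, 32.9, 41.3 and 46.4 CPM (log2 FC = -0.64 ± 0.12 (SE), adjusted p = 0.0211). *Cdh8* measured 112, 97.3, 109 and 116 and 89.8, 77.8, 88.5 and 76.6 CPM (log2 FC = -0.38 ± 0.08 (SE), adjusted p = 0.0292). The genes of the gamma-protocadherin cluster share their last exons, so the count of *Pcdhga7* is uncertain. The mean level of the list lay between 0.17 and 0.19 log2 units above the 8-rat mean in all 4 MA12 rats, at -0.01 in 9N, -0.11 in 15N and -0.13 in 16N, and at -0.48 in 14N. Rat 14N also lay lowest for the synaptic lists, and without it the medians were -0.26 for cadherins, -0.16 for postsynaptic and adhesion genes, -0.14 for vesicle release and -0.09 for potassium channels.

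**Figure D4:**
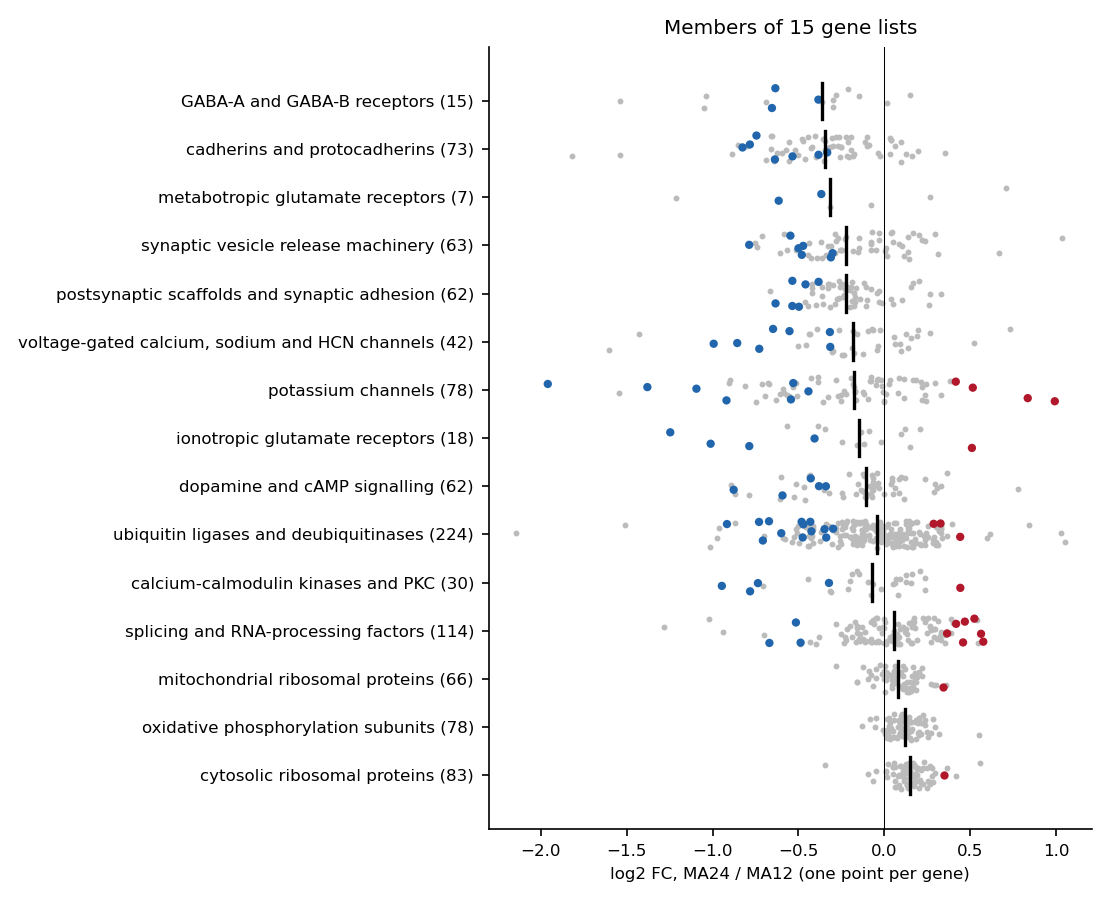
Each point is a gene of the named list (number of genes tested in parentheses) at its log2 FC between MA24 and MA12, coloured where its adjusted p was below 0.05 (blue lower, red higher), and black bars mark the median of a list. The receptor, channel, synaptic and cadherin lists have medians between -0.36 and -0.15, and the ribosomal and oxidative phosphorylation lists have medians between 0.08 and 0.15.

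Several second messenger genes of dopamine and calcium signalling were called. Of 62 dopamine and cAMP signalling genes, 5 fell (*Pde7b*, *Creb1*, *Gnai1*, *Pde4b* and *Prkar2a*), which makes 8.06% against 2.51% of all genes. None rose, and the median was -0.11. *Creb1*, the cAMP-responsive transcription factor, measured 11.1, 9.77, 8.41 and 10.8 CPM in MA12 and 7.22, 3.55, 4.52 and 6.44 CPM in MA24 (log2 FC = -0.88 ± 0.22 (SE), adjusted p = 0.0419). *Pde7b*, a phosphodiesterase that breaks down cAMP, measured 71.5, 71.3, 78.6 and 71.1 and 63.4, 44.3, 55.2 and 54.3 CPM (log2 FC = -0.43 ± 0.10 (SE), adjusted p = 0.0348). Of 30 calmodulin kinase and protein kinase C genes, *Prkcb*, *Prkca*, *Prkcd* and *Camk2d* fell and *Camkv* rose. The falls made 13.3% of the list and the rise 3.33%, against 2.51% and 1.66% of all genes. *Prkcb* measured 481, 498, 549 and 509 CPM in MA12 and 407, 382, 412 and 428 CPM in MA24 (log2 FC = -0.32 ± 0.07 (SE), adjusted p = 0.0313). *Camkv*, a kinase-like protein of dendritic spines without catalytic activity, measured 1013, 1193, 1248 and 1244 and 1490.5, 1592, 1519 and 1779.9 CPM (log2 FC = 0.44 ± 0.09 (SE), adjusted p = 0.0243). In the Ras and MAP kinase list, 7 of 74 genes fell, the inhibitor *Spred1* (log2 FC = -0.59 ± 0.11 (SE), adjusted p = 0.0221) and the GTPase-activating genes *Rasa1* and *Nf1* among them, and 2 rose (*Rasgrp2* and *Mapk11*). The falls made 9.46% of this list and the rises 2.7%. *Rasgrp1*, a Ras activator that is abundant in striatum, measured 539.6, 498, 579 and 582 CPM in MA12 and 451, 322, 429.9 and 355 CPM in MA24 (log2 FC = -0.50 ± 0.10 (SE), adjusted p = 0.0268).

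Few genes of growth factor, TGF-beta, Wnt and guidance signalling were called. The rises made 0% to 4.69% of these 4 lists and the falls 3.12% to 4.55%, against 1.66% and 2.51% of all genes. *Bmpr2*, the type II receptor of bone morphogenetic proteins, measured 54.7, 57.0, 45.4 and 46.3 CPM in MA12 and 36.0, 25.4, 31.1 and 32.8 CPM in MA24 (log2 FC = -0.70 ± 0.11 (SE), adjusted p = 0.0179). *Tgfbr1* changed by -0.55 ± 0.14 (log2, SE; adjusted p = 0.0408), and *Inha*, the alpha subunit of inhibin, rose from 9.12 ± 1.15 to 16.6 ± 3.55 CPM (mean ± SD, n = 4; log2 FC = 0.86 ± 0.17 (SE), adjusted p = 0.0221). Among 64 growth factor genes, *Egfr* and the GDNF co-receptor *Gfra1* fell and *Ltk*, *Nrg2* and *Vegfa* rose. *Egfr* measured 9.25, 9.44, 7.52 and 8.13 CPM in MA12 and 5.98, 3.45, 4.37 and 3.54 CPM in MA24 (log2 FC = -0.98 ± 0.21 (SE), adjusted p = 0.0268). *Ltk*, a receptor tyrosine kinase related to ALK, had the largest rise of the genes that met the naming rule, with 19.2, 16.1, 15.9 and 22.8 CPM in MA12 and 24.7, 42.3, 31.1 and 53.6 CPM in MA24 (log2 FC = 1.04 ± 0.20 (SE), adjusted p = 0.0232). The MA24 rats spread from 24.7 to 53.6 CPM, and the naming rule took only genes whose groups did not overlap. Of 44 Wnt genes the receptors *Fzd3* (log2 FC = -1.02 ± 0.22 (SE), adjusted p = 0.0297) and *Lrp6* (log2 FC = -0.46 ± 0.12 (SE), adjusted p = 0.0460) fell, and of 62 axon guidance genes *Epha4* and *Unc5d* fell and *Sema6c* rose. *Epha4* measured 316, 287, 323 and 315 CPM in MA12 and 265, 234, 243 and 210.3 CPM in MA24 (log2 FC = -0.38 ± 0.08 (SE), adjusted p = 0.0268).

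The largest falls outside these families had varied functions. *Pnpla1*, a lipid hydrolase known from skin, measured 5.21, 13.7, 13.2 and 13.2 CPM in MA12 and 1.03, 0.591, 1.23 and 4.28 CPM in MA24 (log2 FC = -2.68 ± 0.48 (SE), adjusted p = 0.0198). *Clca1*, a secreted regulator of chloride channels, measured 5.93, 2.55, 7.42 and 6.83 and 1.25, 1.23, 1.13 and 2.53 CPM (log2 FC = -1.89 ± 0.36 (SE), adjusted p = 0.0225). Both were low genes, and a lack of overlap between the groups was a condition for naming them. *Plcxd3*, a phospholipase C-like gene, changed by -1.39 ± 0.22 (log2, SE; adjusted p = 0.0179). The transcription factors *Nfib* (log2 FC = -1.32 ± 0.26 (SE), adjusted p = 0.0243), *Creb5* (log2 FC = -1.31 ± 0.31 (SE), adjusted p = 0.0374) and *Sox6* (log2 FC = -1.01 ± 0.23 (SE), adjusted p = 0.0347) were each below 8 CPM in every rat. *Pak3*, a kinase of dendritic spines, measured 21.9, 18.0, 16.7 and 12.4 CPM in MA12 and 10.9, 4.93, 7.25 and 7.44 CPM in MA24 (log2 FC = -1.17 ± 0.22 (SE), adjusted p = 0.0221). The microtubule protein gene *Map2* measured 361, 425, 368 and 322 and 272, 177, 252 and 249 CPM (log2 FC = -0.64 ± 0.12 (SE), adjusted p = 0.0221), and of 62 kinesin, dynein, tubulin and microtubule genes, 3 fell (*Map2*, *Kif3c* and *Kif1b*) and 2 rose (*Tuba1a* and *Kif20a*). The falls made 4.84% of this list and the rises 3.23%, against 2.51% and 1.66% of all genes. *Crb2* and *Gpc3*, also among the 15 largest falls, were highest in rats 21 and 31 of the 8. *Gpc3* measured 17.4, 10.8, 6.58 and 5.42 CPM in MA12 and 4.64, 4.19, 4.16 and 4.65 CPM in MA24, and its log2 FC was -1.19 over 8 rats and -0.44 over the rats with N. *Crb2* went from -1.30 to -0.59 in the same way.

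Among the rises, the largest under the naming rule after *Ltk* and *Kcnk4* were the clock genes *Ciart* and *Per2* and an uncharacterized gene. *RGD1566401* measured 395, 433, 257 and 547 CPM in MA12 and 589.9, 986, 642 and 889 CPM in MA24 (log2 FC = 0.93 ± 0.20 (SE), adjusted p = 0.0297). *Trank1*, a large gene of unclear function, measured 214, 246, 161 and 269 and 305, 479, 353 and 463 CPM (log2 FC = 0.85 ± 0.16 (SE), adjusted p = 0.0221). *Lpin3*, a phosphatidate phosphatase of lipid synthesis, measured 27.0, 29.7, 22.5 and 36.2 and 40.5, 64.1, 47.7 and 55.4 CPM (log2 FC = 0.85 ± 0.15 (SE), adjusted p = 0.0193). A lack of overlap between the groups was a condition for naming these 3 genes, and rat 14N was the highest in each. *Plk5*, a polo-like kinase of neurons and glia, measured 28.9, 33.5, 33.9 and 39.7 CPM in MA12 and 46.4, 65.4, 67.1 and 60.6 CPM in MA24 (log2 FC = 0.82 ± 0.12 (SE), adjusted p = 0.0179). *Mthfd1l*, a mitochondrial enzyme of folate metabolism, measured 15.0, 13.7, 12.1 and 13.7 and 26.3, 25.0, 17.9 and 26.0 CPM (log2 FC = 0.80 ± 0.13 (SE), adjusted p = 0.0179). *Mroh7*, *Pdzd7*, *Kcnip2*, *Inha* and *Angptl4* made up the rest together with *Oas1b*, whose counts may be shared with near-identical neighbours. *Car3*, which codes for carbonic anhydrase 3, had the largest log2 FC of any rise (log2 FC = 4.42 ± 0.74 (SE), adjusted p = 0.0179) but was named after its values were seen. It measured 0.588, 0.543, 0.141 and 0.677 CPM in MA12 and 14.6, 0.542, 12.5 and 14.3 CPM in MA24, so that 3 MA24 rats were high and 14N was at the MA12 level. One of the 4 non-addicted rats was high as well, with 0.678, 1.43, 0.205 and 12.3 CPM in rats 9, 11, 12 and 13. *Fcrl2*, an Fc receptor-like gene of a family of close relatives and the largest fall (log2 FC = -4.54 ± 1.06 (SE), adjusted p = 0.0368), was high in 2 of the 4 MA12 rats and low in the other 6, with 0.504, 11.6, 0.376 and 13.2 CPM in MA12 and 0.301, 0.148, 0.565 and 0.0528 CPM in MA24.

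Among RNA-processing genes, more calls were rises than falls. Of 114 splicing and RNA-processing genes, 7 rose (*Snrnp70*, *Rbm3*, *Ddx17*, *Ddx39b*, *Leng8*, *Rsrp1* and *Acin1*) and 3 fell (*Celf1*, *Mbnl1* and *Elavl3*), which makes 6.14% against 1.66% of all genes for the rises and 2.63% against 2.51% for the falls. The median of the list was 0.05 with 64 genes above 0, and it was 0.0074 without rat 14N. *Snrnp70*, the U1 snRNP protein that defines 5′ splice sites, measured 156, 151, 118 and 169.7 CPM in MA12 and 193, 216, 205 and 209 CPM in MA24 (log2 FC = 0.47 ± 0.10 (SE), adjusted p = 0.0258). *Rbm3*, an RNA-binding protein induced by cooling, measured 69.0, 76.6, 52.1 and 81.9 and 94.7, 122, 106 and 93.5 CPM (log2 FC = 0.58 ± 0.13 (SE), adjusted p = 0.0320). Rat 4N was the lowest of the 8 for both. *Mbnl1* and *Celf1*, which act against each other on many alternative exons, both fell. *Mbnl1* measured 23.5, 21.5, 20.9 and 19.3 CPM in MA12 and 12.6, 10.1, 15.5 and 15.4 CPM in MA24 (log2 FC = -0.67 ± 0.14 (SE), adjusted p = 0.0271), and *Celf1* 73.1, 64.8, 68.3 and 69.9 and 56.2, 39.1, 52.0 and 49.5 CPM (log2 FC = -0.49 ± 0.10 (SE), adjusted p = 0.0258).

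Ribosomal and respiratory genes leaned upwards by small amounts with almost no calls. Of 83 cytosolic ribosomal protein genes, 79 had a log2 FC above 0, the median was 0.15 and 1 passed the test (*Rpl36*, log2 FC = 0.35 ± 0.08 (SE), adjusted p = 0.0369). Of 78 oxidative phosphorylation genes, 73 were above 0, the median was 0.12 and none passed. At an unadjusted p below 0.05, 20 of them were higher and 0 lower, against 10.7% and 12.2% of all genes. Of 66 mitochondrial ribosomal genes, 52 were above 0, with a median of 0.08 and 1 call (*Mrpl38*, log2 FC = 0.34 ± 0.09 (SE), adjusted p = 0.0465). Over all genes, 6221 of 12652 were above 0. By mean count, the median log2 FC was -0.07 in the lowest of 5 equal parts of the genes and 0.04 in the highest. Many ribosomal protein genes have pseudogene copies that could take or lend reads. The summed level of the cytosolic ribosomal list was 23173, 25088, 24962 and 22385 CPM in the MA12 rats and 23811, 28578, 27199 and 27266 CPM in the MA24 rats. Rat 9N lay within the MA12 range and 14N was the highest. Glycolysis genes had a median of 0.13 with no call among 24.

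The clock genes are given in brief. Of 11 repressor and output genes, 4 rose (*Dbp*, *Ciart*, *Per3* and *Per2*) and none fell, and of 5 activator genes, *Arntl* fell and none rose. The rises made 36.4% of their list against 1.66% of all genes, and the fall 20% of its list against 2.51%. *Dbp*, the output factor that binds D-boxes, measured 425, 544, 564 and 579 CPM in MA12 and 759, 895, 768 and 919 CPM in MA24 (log2 FC = 0.66 ± 0.10 (SE), adjusted p = 0.0179), and *Arntl*, which binds E-boxes together with CLOCK, 57.0, 49.2, 59.6 and 62.2 and 41.3, 36.9, 37.7 and 33.1 CPM (log2 FC = -0.61 ± 0.09 (SE), adjusted p = 0.0179).

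Few genes of the stress and immune lists passed the adjusted threshold. Of 36 immediate early genes, *Homer1* and *Gadd45g* fell (5.56% against 2.51% of all genes) and none rose, with a median of -0.13. *Gadd45g*, a growth arrest gene, measured 26.8, 33.5, 27.7 and 34.8 CPM in MA12 and 17.1, 22.7, 24.5 and 17.6 CPM in MA24 (log2 FC = -0.59 ± 0.14 (SE), adjusted p = 0.0348). Of 27 glucocorticoid-induced genes, 1 rose (3.7% against 1.66% of all genes). It was *Angptl4*, a secreted inhibitor of lipoprotein lipase (log2 FC = 0.80 ± 0.17 (SE), adjusted p = 0.0306). Of the 27, 20 were above 0, with a median of 0.13 over 8 rats and 0.03 over the rats with N. At an unadjusted p below 0.05, 9 of the 27 were higher and 1 was lower, against 10.7% and 12.2% of all genes. Of 44 heat shock genes, the co-chaperone *Bag1* rose by 0.28, and *Hspa4* and *Hspa4l* fell by 0.29 and 0.32 on the log2 scale. The rise made 2.27% of this list and the falls 4.55%, against 1.66% and 2.51% of all genes. None of the 29 genes of the unfolded protein response passed, with 1 higher and 5 lower at an unadjusted p below 0.05. Of 54 interferon and antigen presentation genes, *Irf3* and *Oas1b* rose (3.7% against 1.66% of all genes) and none fell. *Irf3*, a transcription factor of the antiviral response, measured 31.2, 29.8, 26.0 and 33.3 CPM in MA12 and 40.0, 54.6, 40.5 and 53.1 CPM in MA24 (log2 FC = 0.65 ± 0.12 (SE), adjusted p = 0.0210). Microglial (21), antioxidant (41), cholesterol synthesis (25) and proteasome (46) genes had no call in either direction.

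A few chromatin and protein turnover genes were called in each direction. Of 224 ubiquitin ligases and deubiquitinases, 13 fell and 3 rose, 5.80% and 1.34% of the list against 2.51% and 1.66% of all genes. *Usp9x*, a deubiquitinase of neurons, measured 262, 236, 231 and 244 CPM in MA12 and 188, 177, 201 and 159 CPM in MA24 (log2 FC = -0.42 ± 0.08 (SE), adjusted p = 0.0221), and *Xiap*, a ligase that blocks caspases, 27.7, 26.7, 24.0 and 20.3 and 18.4, 12.4, 13.9 and 15.8 CPM (log2 FC = -0.71 ± 0.14 (SE), adjusted p = 0.0233). *Rnf112*, a ring finger protein of the brain, rose, with 170.2, 198, 190.4 and 205 and 238, 285, 248 and 266 CPM (log2 FC = 0.44 ± 0.08 (SE), adjusted p = 0.0210). Among 37 histone methylation genes, *Nsd1* and *Setd7* fell (5.41% against 2.51% of all genes) and the demethylase *Kdm4b* rose (2.7% against 1.66%). Among 49 remodelers and acetylation regulators, *Chd2* and *Ncor1* fell and *Hdac10* and *Baz1b* rose (4.08% of the list in each direction).

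Markers of the striatum's own cell types gave few calls, and some lists of markers of neighbouring tissue moved with the rat numbers. None of the 12 pan-striatal, 7 indirect-pathway, 8 cholinergic, 10 GABA interneuron and 20 oligodendrocyte markers passed the test. *Slc4a4*, a bicarbonate transporter, was the only 1 of 18 astrocyte markers that passed (log2 FC = -0.59 ± 0.15 (SE), adjusted p = 0.0458), and *Sox6* the only 1 of 10 precursor markers. These single falls made 5.56% and 10% of their lists, against 2.51% of all genes. *Gfap* measured 395 ± 88.3 CPM in MA12 and 345 ± 35.1 CPM in MA24 (mean ± SD, n = 4; adjusted p = 0.405). At the vessel wall, 2 of 21 mural cell and fibroblast markers fell (9.52% against 2.51% of all genes) and none rose. The 2 were *Rgs5* (log2 FC = -0.72 ± 0.17 (SE), adjusted p = 0.0374) and *Abcc9* (log2 FC = -0.73 ± 0.19 (SE), adjusted p = 0.0450), both markers of pericytes. Of the 21 markers, 14 had a log2 FC below 0 and 7 above. Of 26 endothelial markers, 1 rose (3.85% against 1.66% of all genes) and none fell, with 19 above 0 and 7 below. It was the efflux pump *Abcg2*, with 12.3, 10.9, 17.7 and 20.3 CPM in MA12 and 24.4, 30.5, 24.7 and 23.9 CPM in MA24 (log2 FC = 0.76 ± 0.18 (SE), adjusted p = 0.0348).

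Ependymal, hypothalamic and septal markers were higher in rats 21 and 31 than in the other 6 rats. The summed level of 20 ependymal genes was 833, 914, 569 and 524 CPM in MA12 and 602, 660.0, 634 and 608 CPM in MA24, and that of 14 hypothalamic, septal and preoptic genes 119.9, 99.5, 62.3 and 59.5 and 62.7, 54.5, 58.5 and 74.3 CPM. Their medians changed sign with the choice of rats, from -0.30 over 8 rats to 0.31 over the 6 rats with N for the ependymal list, from -0.46 to 0.02 for the hypothalamic list, and from -0.35 to 0.19 for 10 choroid plexus genes, with no call in any of them. The thalamic list differed, because all 10 members were below 0 over 8 rats and 9 were below 0 over the rats with N, with medians of -0.37 and -0.28. Its summed level was 157, 144, 115 and 118 CPM in MA12 and 86.3, 88.7, 97.8 and 102 CPM in MA24, and 1 member passed the test (10% of the list against 2.51% of all genes). *Prkcd*, that member, measured 50.3, 39.1, 19.2 and 29.5 CPM in MA12 and 19.2, 16.3, 16.2 and 20.1 CPM in MA24 (log2 FC = -0.95 ± 0.22 (SE), adjusted p = 0.0360). *Slc17a7* and *Tbr1*, defining markers of cortical excitatory neurons, were at 2.77 ± 0.329 and 0.450 ± 0.355 CPM in MA12 and at 5.70 ± 3.18 and 0.476 ± 0.125 CPM in MA24. The part of neighbouring tissue in the falls named above was not tested. The 6 rats with N, over which the thalamic list had a median of -0.28, also took part in choosing the genes. Over these rats the log2 FC was -1.07 for *Grin2a*, -0.45 for *Gabra2*, -0.92 for *Kcnq3*, -0.85 for *Cacna2d1*, -1.19 for *Nts* and -0.79 for *Cdh6*.

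**Figure D5:**
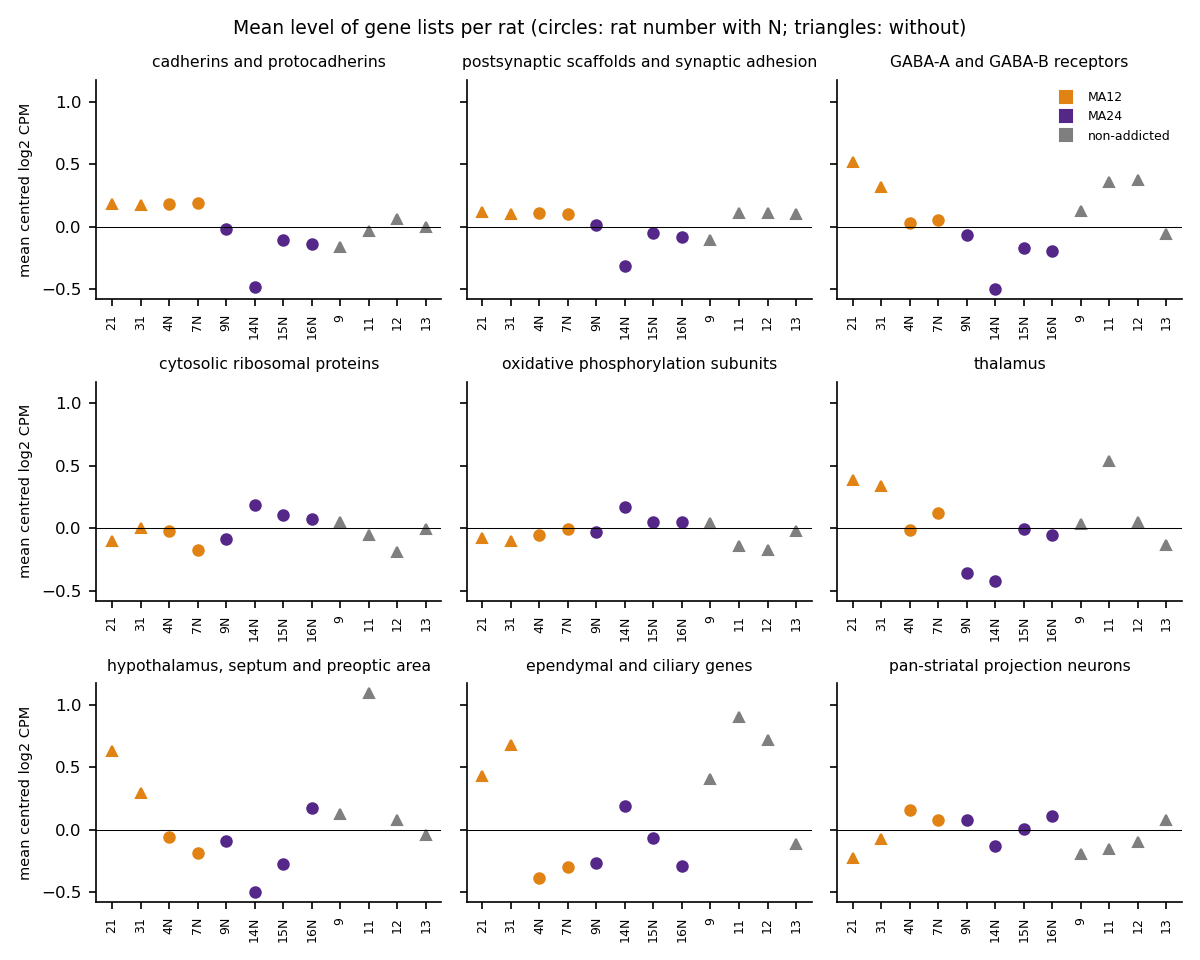
Each point is 1 rat (x axis, by its number), and the y axis is the average of log2 CPM over the genes of a list after each gene was centred on the 8 MA12 and MA24 rats (circles for rat numbers with N, triangles for those without). Cadherin and postsynaptic lists are higher in every MA12 rat than in every MA24 rat, and so also among circles alone. All MA24 rats are circles, so the abstinent groups cannot be compared among triangles. Ependymal and hypothalamic lists are high in triangles of MA12 and in some of the non-addicted rats.

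The non-addicted rats, none of which has an N in its number, lay between the abstinent groups for most called genes. Of the 210 rises, their mean lay between the means of MA12 and MA24 in 198, below MA12 in 3 and above MA24 in 9. It was nearer to MA24 in 120 rises and nearer to MA12 in 90. Of the 318 falls, it lay between them in 292, and it was nearer to MA12 in 224 and nearer to MA24 in 94. Genes chosen for a large difference between MA12 and MA24 tend to leave the other group in between, so only single genes are given. *Gabra2* measured 82.3, 65.8, 78.6 and 68.1 CPM in non-addicted rats 9, 11, 12 and 13, above all 4 MA24 rats, and *Pclo* 68.4, 93.7, 98.8 and 90.9 CPM. *Kcns2* measured 18.8, 14.7, 22.2 and 20.6 CPM, *Arntl* 39.5, 37.7, 38.8 and 35.4 CPM and *Pdyn* 296, 227, 317 and 316 CPM, all within or close to the range of the MA24 rats. *Camkv* measured 1463, 1434, 1372 and 1490.2 CPM and *Snrnp70* 207, 244, 214 and 192 CPM, above all 4 MA12 rats in both cases.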

How the data were processed

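Poly-A RNA of each striatum was sequenced as paired-end reads, and per the labels the authors used Cutadapt 1.18, STAR 2.7.0e, featureCounts and HTSeq 0.12.4 with rn6. They deposited raw counts per gene symbol, without normalization. Their treatment of strands and of reads at several positions is not given in the sources used here, so counts of overlapping genes and close copies are uncertain. All 12 columns were matched to samples by their labels, and 0 were left out. Genes whose counts averaged above 4 in the 8 MA libraries were scaled by TMM and tested with edgeR 4.0.16 (glmQLFit and glmQLFTest, R 4.3.3, 2 groups in the fit, Benjamini-Hochberg adjustment). Nothing in the labels says more of the rats than 1 library each, and p-values measure the spread between these rats. Levels are TMM-scaled CPM, and log2 CPM used a prior count of 2. In counts simulated for the 12652 genes, 200 genes with a mean count above 50 were changed 2-fold. The test called 193 genes, of which 183 were among the changed ones (91.5% of them). Smaller changes and lower counts were not simulated, and the called genes had median log2 FCs of 0.45 (rises) and -0.53 (falls). For the variance filter named next, variance was ranked over the 8 MA12 and MA24 libraries in every fit that used it. The study's filter, which removes the 15% of genes with the lowest variance, was an alternative, as were DESeq2 1.42.0, other scalings and filters, a fit of all 3 groups, the loss of each rat in turn, and the kind of rat number. Named genes were the 15 largest rises and falls among DEGs with a mean count of at least 50 and no overlap, the 10 smallest p, up to 4 called members of each of 63 gene lists (2 of the highest level where none was called), and 3 markers per cell type. Further called members of a list are named without values. A few called members are counted with their lists but not reported here. Members and lists were chosen with earlier results of these data known. Gene lengths were not used here. Python 3.11.15 was used for summaries.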

Additional observations from a re-analysis of the deposited data

Results flagged for a closer look

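Among the genes with printed values, 192 groups of 4 rats were examined for a rat far from the other 3 (by Dixon's ratio of the gap to the group's range, at its 95% critical value), and 14 met this limit, where chance alone gives about 9.6. In MA24, rat 14N stood apart in 3 genes. It was lowest for *Car3* (ratio 0.952, with 0.542 CPM against 12.5 to 14.6 CPM in the others) and *Erc1* (0.878, 6.21 against 11.6 to 12.6 CPM) and highest for *Abcg2* (0.865, 30.5 against 23.9 to 24.7 CPM). Rat 16N was highest for *Clca1* (0.881, 2.53 against 1.13 to 1.25 CPM) and *Icam5* (0.874, 493 against 415 to 424 CPM) and lowest for *Gabra2* (0.846, 43.6 against 55.4 to 57.9 CPM). Rat 15N was lowest for *Mthfd1l* (0.873, 17.9 against 25.0 to 26.3 CPM). In MA12, rat 21 was lowest for *Pnpla1* (0.961, 5.21 against 13.2 to 13.7 CPM), rat 31 lowest for *Homer1* (0.924, 123 against 155 to 158 CPM) and rat 7N highest for *Kcnt1* (0.850, 200.2 against 153 to 159 CPM). Rat 4N was highest for *Pde7b* (0.947, 78.6 against 71.1 to 71.5 CPM) and lowest for *Car3* (0.839, 0.141 against 0.543 to 0.677 CPM). *Eif2ak1* met the limit in both groups, with rat 31 lowest in MA12 (0.857, 66.0 against 71.4 to 72.4 CPM) and rat 9N highest in MA24 (0.860, 61.4 against 54.6 to 55.5 CPM).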

How the results depend on the processing

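Scaling by RLE or upper quartiles, the filters on counts or variance and a fit of all 3 groups left the numbers of DEGs within 1.5 times of 58 rises and 137 falls. DESeq2 called more, with 106 DEGs higher and 233 lower and 560 and 705 genes at an adjusted p below 0.05 at any fold, and edgeR's likelihood ratio test called 115 and 258 DEGs and 475 and 662 genes at any fold. Leaving out 1 rat gave 0 to 103 DEGs higher and 0 to 238 lower, and 0 to 295 and 0 to 480 genes at any fold. Both ends of these ranges rest on rats 21 and 9N, and the count without rat 16N was 0 and 2. With only the N rats, or with the kind of number as a covariate, the counts were 0 in both directions. Added after the data were seen, the same 4 sets of samples were fitted with DESeq2 and with the study's variance filter. DESeq2 gave 77 and 118 DEGs without rat 21, 64 and 208 without rat 16N, 74 and 39 with only the N rats, and 83 and 61 with the covariate. The variance filter gave 37 and 66, 32 and 89, 15 and 14, and 25 and 22 in the same order. Fewer samples were in most of these fits, and the cause was not tested further. All 90 called genes with printed values kept their sign in every alternative that tested them. Of their 717 values in the 8 alternatives with all 8 rats and no covariate, 705 stayed past the threshold. The covariate fit also kept all 8 rats but is not among these 8. Over every alternative, 569 of 1723 values of the 96 genes followed were weaker than in the fit used above, 1152 were the same and 2 were stronger. Of 1134 list medians under the alternatives, 38 moved by more than the spread between rats, 25 of them in the fits that used the kind of rat number. No paired analysis was possible because the groups share no rat numbers. Genes near a mean count of 4 are measured with large counting error. Whether the calls follow gene length was not tested, since no rn6 gene lengths were used here.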

Other observations

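The remaining gene lists add the following counts. Of 66 translation factors, 1 fell (1.52% against 2.51% of all genes) and none rose. *Eif2ak1*, the heme-regulated kinase that slows translation, measured 71.7, 66.0, 71.4 and 72.4 CPM in MA12 and 61.4, 55.5, 54.6 and 55.4 CPM in MA24 (log2 FC = -0.31 ± 0.07 (SE), adjusted p = 0.0374). Of 87 extracellular matrix and matrix protease genes, *Adamts19* rose and *Mmp14* and *Tnr* fell, with a median of 0.03. The rise made 1.15% of the list and the falls 2.3%, against 1.66% and 2.51% of all genes. *Mmp14*, a membrane-bound matrix protease, measured 13.8, 17.9, 18.5 and 10.3 CPM in MA12 and 7.57, 5.62, 8.99 and 10.2 CPM in MA24 (log2 FC = -0.91 ± 0.21 (SE), adjusted p = 0.0366), and *Tnr*, the tenascin of perineuronal nets, 48.3, 50.7, 44.6 and 38.3 and 35.1, 14.7, 29.3 and 27.9 CPM (log2 FC = -0.76 ± 0.19 (SE), adjusted p = 0.0433). Of 40 fatty acid genes, *Angptl4* and the neuronal carnitine acyltransferase *Cpt1c* rose (5% against 1.66% of all genes) and none fell. Of 69 autophagy and lysosome genes, 1 rose (1.45% against 1.66% of all genes) and none fell, and 46 were above 0. *Ctsa*, a lysosomal protease, measured 143, 149.5, 165 and 163 CPM in MA12 and 189.5, 213, 199 and 195 CPM in MA24 (log2 FC = 0.36 ± 0.07 (SE), adjusted p = 0.0243).

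Of 179 zinc finger protein genes, 2 rose and 4 fell, close to the share over all genes, with a median of -0.02. In the BCL2 and apoptosis list of 34 genes, *Xiap* fell (2.94% against 2.51% of all genes) and none rose. No call was made by edgeR's quasi-likelihood test in the 20 histone genes (3 higher and 1 lower at an unadjusted p below 0.05), the 5 nuclear long noncoding RNAs (1 and 1) or the 6 blood cell markers (0 and 1). Among all genes, 10.7% were higher and 12.2% lower at that threshold. *Kcnh5* was the 1 fall among 14 cortical markers, which had a median of 0.05. That fall made 7.14% of the list, against 2.51% of all genes.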
